A study of Mus musculus with 10 samples.

Results

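The genes described here are 31 genes of cholesterol synthesis and sterol regulation, out of 55536 genes counted in the cerebellum and cerebral cortex of Snx14-KO mice and controls. They were chosen by name from the known pathway, with earlier results of these data known. They comprise 8 enzymes of the mevalonate steps, 12 enzymes from squalene to cholesterol, 7 regulators, and 4 genes of sterol transport, storage and disposal. All 31 were found in each library's table and passed the filter on low counts in every comparison. Their lowest count in a library was 38 (Nr1h3) and their highest was 5395 (Hmgcs1).

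Each of 5 mice, all 1 year old, gave a cerebellum and a cortex. Snx14-KO mice (KO 1 and KO 2) carry in both copies of Snx14 a frameshift deletion in an exon, made with Cas9 and kept on a C57BL/6J background. As controls served 2 Het mice (controls 1 and 2), with the same deletion in 1 copy, and 1 WT mouse (control 3), so a control is not always free of the allele. Each tissue was sequenced as a whole, as RNA of mixed cell types, and in such bulk samples fewer cells of a type and less RNA per cell cannot be told apart.

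Cholesterol is built from acetyl-CoA through mevalonate and farnesyl diphosphate to squalene, which is closed to lanosterol and trimmed to cholesterol. The brain makes nearly all of its own cholesterol, because plasma lipoproteins do not cross the blood-brain barrier, and oligodendrocytes use much of it for myelin. When sterol in the endoplasmic reticulum is low, the escort Scap carries the SREBP transcription factors (genes Srebf1 and Srebf2) to the Golgi for activation, and the Insig proteins hold them back when sterol is high, while the liver X receptors (Nr1h2 and Nr1h3) sense oxysterols and switch on genes of sterol export.

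Levels are given as counts-per-million (CPM), scaled with TMM factors over all 10 libraries, whose totals lay between 16088310 and 22975355 gene counts. Snx14 itself was at 42.8, 39.9 and 73.3 CPM in the control cerebella and 15.5 and 17.4 CPM in the KO cerebella, and at 34.4, 35.0 and 50.9 CPM and 14.8 and 16.1 CPM in the cortices, with no overlap of KO and controls. Granule cell markers (8 genes) summed to 4088 to 4842 CPM in cerebella and 178 to 195 CPM in cortices, in keeping with the tissue labels. Control 2, the 1 male among the 3 controls by its Y-linked counts, stood apart in cortex: its 8 cortical excitatory neuron markers summed to 3092 CPM, against 5668 and 5339 CPM in controls 1 and 3, and its 10 oligodendrocyte markers to 5325 CPM, against 2883 and 2959 CPM. Results are therefore given with and without this mouse where it changed them.

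In cerebella the most abundant transcripts per kilobase of exon were Insig1, at 27.2 ± 3.00 CPM per kb, and Hmgcs1, at 25.9 ± 3.09 CPM per kb (SD, n = 3 controls), which did not differ beyond their spread. The least abundant by this measure were Lss and Soat1, at 2.54 ± 0.214 and 2.55 ± 0.245 CPM per kb. Their annotated exons, at 10787 and 9791 bases, were the longest of the genes described, so their low rank depends on this division. Before it, Lss and Soat1 were at 27.4 ± 2.31 and 25.0 ± 2.40 CPM in control cerebella, and the lowest gene was Nsdhl at 10.9 ± 0.338 CPM. In cortices Cyp46a1 (61.7 ± 4.07 CPM per kb) and Hmgcs1 (56.5 ± 2.7 CPM per kb) led, again within their spread, followed by Srebf2 (34.2 ± 3.07 CPM per kb), and Nr1h3 was last at 1.05 ± 0.108 CPM per kb. The KO libraries kept Insig1 and Hmgcs1 at the top in cerebella (27.4 ± 1.02 and 25.6 ± 5.54 CPM per kb; SD, n = 2) and Hmgcs1 and Cyp46a1 at the top in cortices (60.5 ± 9.23 and 56.6 ± 4.70 CPM per kb). The plot of levels by library shows how far apart the tissues lay for most genes and how close the genotypes were.

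**Figure D1:**
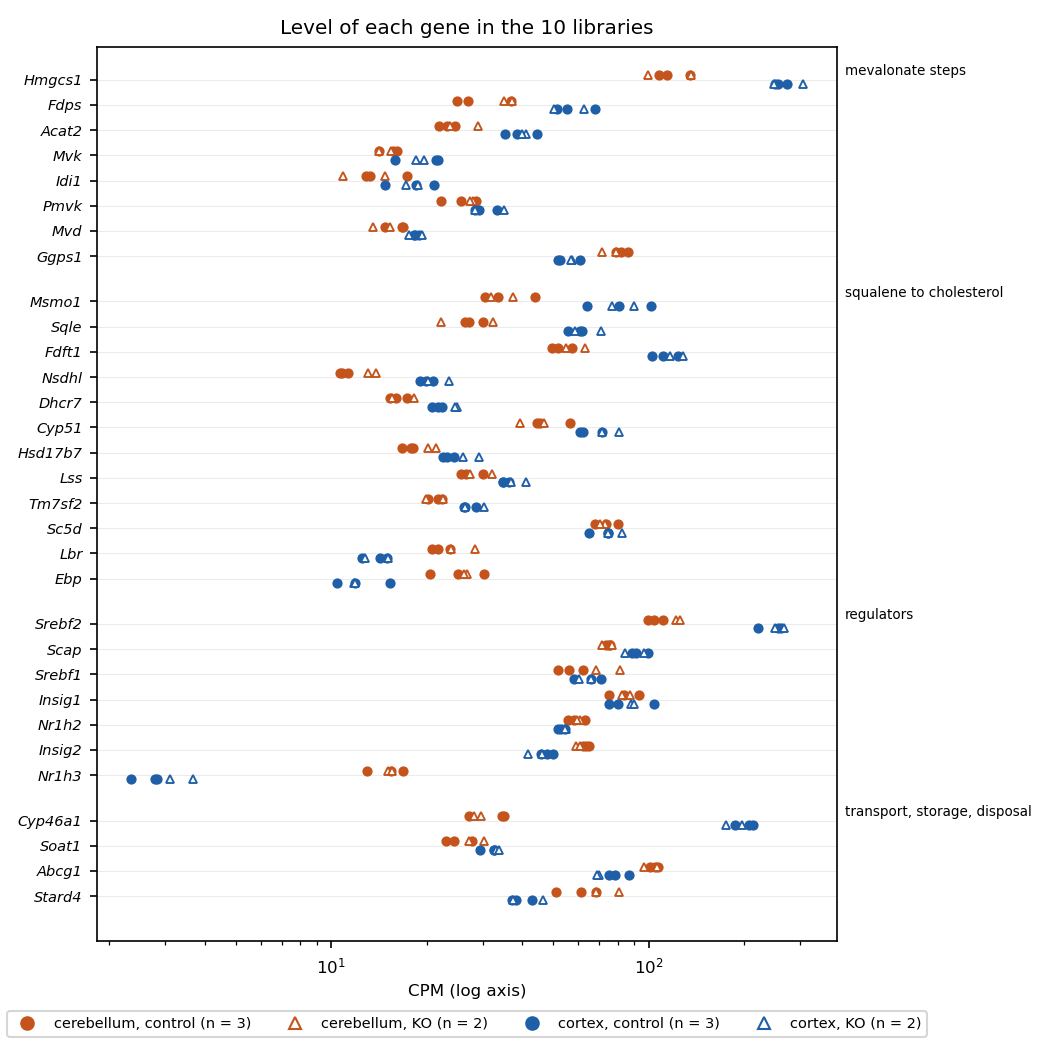
CPM of the 31 genes in each of the 10 libraries, on a log axis, grouped by role and, within a role, ordered by the cerebellum-to-cortex difference in controls; filled circles are controls (n = 3 per tissue) and open triangles are Snx14-KO mice (n = 2 per tissue). Hmgcs1 lies at 108 to 135 CPM in control cerebella and 249 to 273 CPM in control cortices, and Nr1h3 at 13.0 to 16.8 and 2.33 to 2.82 CPM.

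The first comparison asked how the pathway differs between the 2 tissues in control mice. Synthesis enzymes were mostly less abundant in cerebella than in cortices. Of the 20 enzymes 7 were lower in cerebella and 3 were higher, by a call that takes an adjusted p under 0.05 together with a log2 fold change past 0.5 in either direction, where 21.5% of all tested genes were lower and 19.1% were higher. At an adjusted p under 0.05 alone 12 were lower and 3 higher, beside 26.8% and 26.5% of all genes. The median log2 fold change of the enzymes was -0.39, against 0.0168 for all 19416 genes tested, and 16 of the 20 were negative. Control libraries of the tissues did not overlap for 13 enzymes that were lower and 3 that were higher in cerebella, a pattern found for 30.3% and 31.5% of all genes. Their CPM summed to 706 ± 62.0 in cerebella and 1043 ± 79.5 in cortices (SD, n = 3), a ratio of 1.48. The contrast was smaller for the 15 enzymes that share at most 10% of their exonic bases with another annotated gene. Of these 4 were called lower and 2 higher, beside the same 21.5% and 19.1% of all genes. They had a median of -0.37 and summed to 461 ± 35.6 CPM in cerebella and 572 ± 48.8 CPM in cortices.

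In the mevalonate steps, Hmgcs1, which condenses acetyl-CoA and acetoacetyl-CoA, stood out. It was at 108, 135 and 114 CPM in control cerebella and 256, 273 and 249 CPM in control cortices. Every cerebellum was below every cortex, a 2.19-fold difference (log2 fold change -1.13, SE 0.10, adjusted p 2.07e-05). Fdps, the farnesyl diphosphate synthase, was at 26.9, 36.8 and 24.9 CPM in cerebella and 51.4, 67.6 and 55.4 CPM in cortices (log2 fold change -0.98, SE 0.16, adjusted p 0.000921), and 26.7% of its exonic bases are shared with another annotated gene. Acat2, the thiolase of the first step, was 1.70-fold lower in cerebella (log2 fold change -0.77, SE 0.11, adjusted p 0.000366). The kinases Mvk and Pmvk, the decarboxylase Mvd and the isomerase Idi1 had negative values between -0.37 and -0.20 that did not pass, with adjusted p-values of 0.0507 for Mvk and 0.0996 to 0.129 for the others.

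Ggps1 went the other way. It makes geranylgeranyl diphosphate, which is used to prenylate proteins and leaves the route to sterols. Control cerebella were at 82.0, 86.0 and 79.2 CPM and control cortices at 51.7, 60.9 and 52.5 CPM, without overlap (log2 fold change 0.58, SE 0.09, adjusted p 0.000527).

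Between squalene and cholesterol, the enzymes with the lowest relative levels in cerebella were Msmo1, Sqle, Fdft1 and Nsdhl. Sqle, the squalene epoxidase, was at 27.2, 30.0 and 26.3 CPM in control cerebella and 61.0, 61.9 and 55.9 CPM in control cortices, and was 2.14-fold lower in cerebella (log2 fold change -1.10, SE 0.09, adjusted p 1.11e-05). Fdft1, the squalene synthase, was at 51.8, 57.5 and 49.5 CPM against 102, 124 and 111 CPM (log2 fold change -1.09, SE 0.10, adjusted p 2.29e-05). Of its exonic bases 18.3% are shared with Ctsb, whose reads can enter its counts. Msmo1, which oxidizes methyl groups of sterols, was at 30.6, 43.8 and 33.5 CPM against 80.5, 102 and 64.1 CPM (log2 fold change -1.20, SE 0.18, adjusted p 0.000646). For each of these genes the highest cerebellum lay below the lowest cortex. Nsdhl, the dehydrogenase that works beside Msmo1, was at 10.7, 11.3 and 10.8 CPM against 20.9, 19.0 and 19.9 CPM (log2 fold change -0.87, SE 0.10, adjusted p 0.000126). Dhcr7, Cyp51, Hsd17b7, Lss and Tm7sf2 were lower at an adjusted p under 0.05 but by less than 0.5, with log2 fold changes from -0.42 (Dhcr7) to -0.34 (Tm7sf2). Sc5d, a sterol desaturase, did not pass (0.05, 95% interval -0.16 to 0.25).

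Ebp and Lbr were higher in cerebella. Ebp, a sterol isomerase, was at 25.0, 30.3 and 20.5 CPM in control cerebella and 10.4, 15.3 and 11.9 CPM in control cortices, a 2.00-fold difference (log2 fold change 1.00, SE 0.18, adjusted p 0.00165). Lbr, a sterol reductase that is also the lamin B receptor of the nuclear envelope, was at 21.7, 23.7 and 20.8 CPM against 14.3, 15.0 and 12.5 CPM (log2 fold change 0.66, SE 0.11, adjusted p 0.00109). Tm7sf2, the enzyme that shares the reductase step with Lbr, had a log2 fold change of -0.34 in the same mice.

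**Figure D2:**
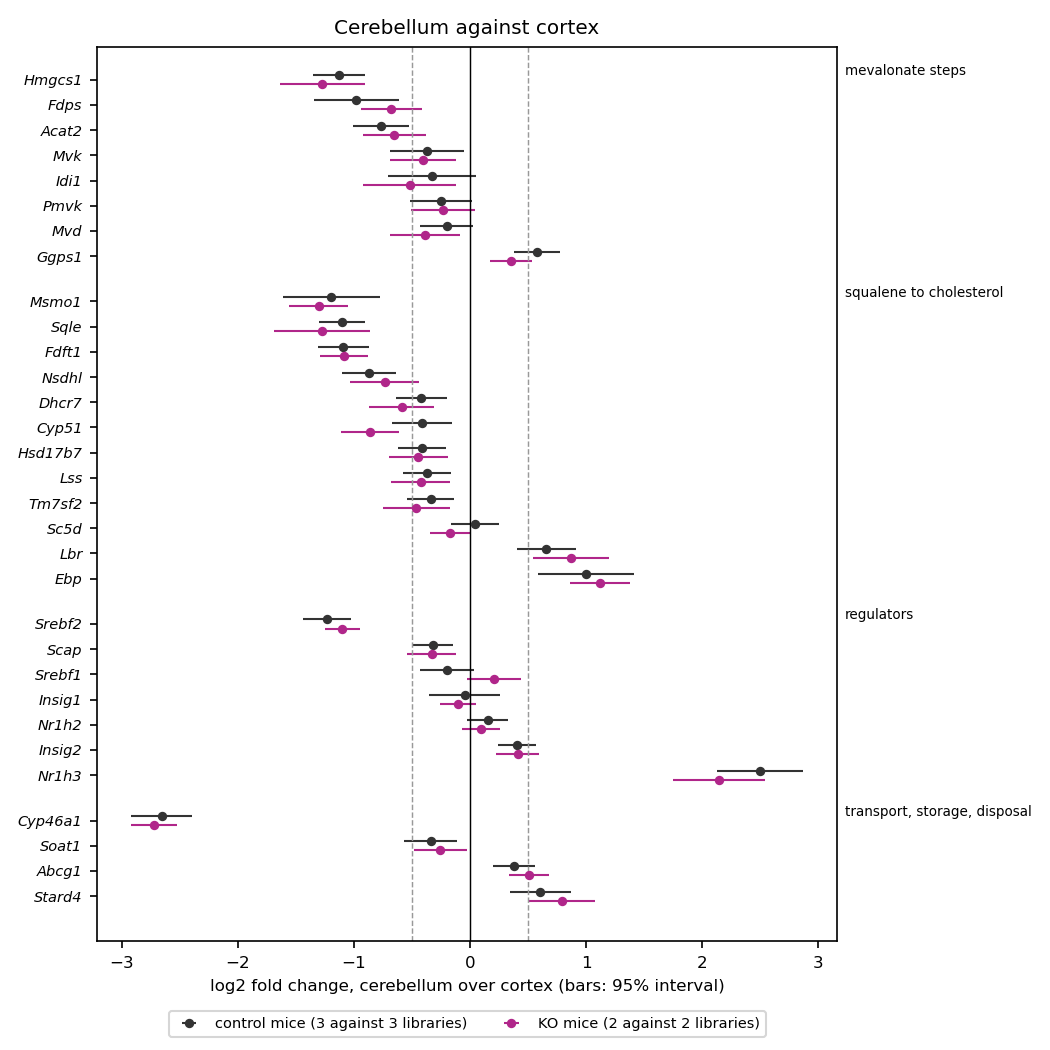
Log2 fold change of each gene in cerebellum over cortex, in control mice (dark, 3 against 3 libraries) and in KO mice (magenta, 2 against 2 libraries), with 95% intervals as bars and dashed lines at the fold threshold of 0.5. Cyp46a1 lies at -2.66 and -2.72, Nr1h3 at 2.50 and 2.15, and most synthesis enzymes lie left of 0 in both classes of mice.

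The promoters of the synthesis genes were searched because their transcription is known to depend on SREBP sites and on the nuclear factor Y that binds CCAAT boxes. RefSeq windows (GRCm38.p6, 250 bases before to 50 after a start) were held for 26 of the 31 genes and 17 of the 20 enzymes. A CCAAT box (CCAAT on either strand) was found for 16 of these 17 enzymes, or 94.1%, and for 41.1% of all 27025 genes with a window. The exception was Acat2. The core of the sterol regulatory element, TCACNCCAC on either strand, was found for 1 enzyme, Hmgcs1, and for 1.44% of all genes, and the E-box CACGTG for 3 enzymes (17.6%) and 8.09% of all genes. Among enzymes with a window, 8 of the 9 lower in cerebella at an adjusted p under 0.05 held a box, as did all 3 that were higher and all 5 that did not pass. The windows of the 5 enzymes with the smallest adjusted p in this comparison, of those with a window, are shown. They set a promoter with a match to the sterol element and several boxes beside one with no exact match. Capitals mark motif matches, ATTGG is the box on the opposite strand, and each window is written along the strand of its gene. They lie at chr13:119690101-119690400 on the plus strand (Hmgcs1), chrX:72918271-72918570 on the plus strand (Nsdhl), chr17:12960676-12960975 on the minus strand (Acat2), chr13:14063439-14063738 on the minus strand (Ggps1) and chr8:64733529-64733828 on the minus strand (Msmo1).
Hmgcs1: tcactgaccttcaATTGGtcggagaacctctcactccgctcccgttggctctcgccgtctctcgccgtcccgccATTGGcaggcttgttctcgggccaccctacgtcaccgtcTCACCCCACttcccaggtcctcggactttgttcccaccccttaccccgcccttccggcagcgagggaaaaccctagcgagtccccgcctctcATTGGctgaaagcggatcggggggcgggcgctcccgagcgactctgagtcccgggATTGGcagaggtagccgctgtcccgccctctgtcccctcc
Nsdhl: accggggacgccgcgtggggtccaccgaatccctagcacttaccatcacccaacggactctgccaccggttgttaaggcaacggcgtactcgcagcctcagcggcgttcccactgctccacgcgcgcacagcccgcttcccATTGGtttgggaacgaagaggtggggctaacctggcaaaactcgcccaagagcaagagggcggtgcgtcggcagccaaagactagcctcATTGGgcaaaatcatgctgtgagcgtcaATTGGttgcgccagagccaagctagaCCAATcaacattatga
Acat2: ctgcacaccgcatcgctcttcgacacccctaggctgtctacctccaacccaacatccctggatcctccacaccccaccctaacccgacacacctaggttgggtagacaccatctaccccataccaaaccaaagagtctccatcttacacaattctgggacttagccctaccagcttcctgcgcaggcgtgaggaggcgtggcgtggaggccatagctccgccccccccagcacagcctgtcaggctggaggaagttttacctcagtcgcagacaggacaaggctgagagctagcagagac
Ggps1: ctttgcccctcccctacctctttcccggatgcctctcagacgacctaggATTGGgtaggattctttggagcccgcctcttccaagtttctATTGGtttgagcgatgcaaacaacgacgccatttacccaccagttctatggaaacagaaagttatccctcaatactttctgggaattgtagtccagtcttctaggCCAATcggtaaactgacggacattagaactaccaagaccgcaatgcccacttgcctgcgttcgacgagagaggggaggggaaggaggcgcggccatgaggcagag
Msmo1: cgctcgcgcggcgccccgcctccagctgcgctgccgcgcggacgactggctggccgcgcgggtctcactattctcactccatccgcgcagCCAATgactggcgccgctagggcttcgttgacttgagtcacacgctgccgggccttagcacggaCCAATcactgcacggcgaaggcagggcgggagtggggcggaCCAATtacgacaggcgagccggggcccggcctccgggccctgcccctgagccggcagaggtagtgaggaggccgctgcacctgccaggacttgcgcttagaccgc

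In Hmgcs1 the sterol element began 137 bases upstream of the start and lay between boxes 176 and 45 bases upstream, with a further box 237 bases upstream and another 10 bases after the start. Nsdhl held 4 boxes, at 109 and 20 bases upstream and 8 and 34 bases after the start, and Acat2 held none. Msmo1 held 3 boxes, 160, 96 and 55 bases upstream, and Ggps1 also held 3, at 201, 160 and 55 bases, although the first gene was lower and the second higher in cerebella. These matches are descriptions of letters and not evidence of binding. Only exact letters were searched, so the lack of a match is not evidence that a variant site is absent.

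Among the regulators, Srebf2 and Nr1h3 separated the tissues in opposite directions. Srebf2 encodes the SREBP that acts mainly on cholesterol synthesis genes. It was at 104, 111 and 99.7 CPM in control cerebella and 262, 221 and 255 CPM in control cortices, 2.35-fold lower in cerebella (log2 fold change -1.23, SE 0.09, adjusted p 7.37e-06). Nr1h3, the liver X receptor alpha, was at 15.4, 16.8 and 13.0 CPM against 2.82, 2.79 and 2.33 CPM, 5.66-fold higher in cerebella (log2 fold change 2.50, SE 0.16, adjusted p 3.69e-06). Nr1h2, the related liver X receptor beta, had a value of 0.15 that did not pass (adjusted p 0.125). Scap was lower and Insig2 higher in cerebella by less than the fold threshold (-0.32, adjusted p 0.00617, and 0.40, adjusted p 0.00147). Srebf1, whose product acts more on fatty acid genes, and Insig1 did not pass, with values of -0.20 and -0.05.

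Cyp46a1 had the most negative value of the 31 genes. Its product hydroxylates cholesterol in neurons to the oxysterol that leaves the brain. It was at 34.5, 27.1 and 35.0 CPM in control cerebella and 213, 188 and 208 CPM in control cortices, 6.31-fold lower in cerebella (log2 fold change -2.66, SE 0.12, adjusted p 3.45e-07). Stard4, which carries sterol between membranes in the cytosol, was at 61.4, 68.1 and 51.0 CPM in cerebella and 38.2, 43.0 and 37.2 CPM in cortices (log2 fold change 0.60, SE 0.12, adjusted p 0.00224). The exporter Abcg1 was higher by 0.38 (adjusted p 0.00360), and Soat1, which esterifies cholesterol for storage in lipid droplets, was lower (-0.34, adjusted p 0.02), both within the fold threshold. The groups of libraries did not overlap for any of these 4 genes.

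Uptake and efflux genes outside the 31 were set beside synthesis from lists of 40 other pathway genes. Their counts stand beside the 19.1% of all genes called higher and the 21.5% called lower in this comparison, and for lists of 3 to 11 genes a count of 1 or 2 is near that background. Of 8 lipid carriers and efflux pumps 5 were higher in cerebella and 0 lower, with a median of 0.69. At an adjusted p under 0.05 alone 1 was lower, Clu (-0.46). The lecithin-cholesterol acyltransferase Lcat was higher by 1.94 (adjusted p 5.93e-06), and the transporters Abca7 and Abca2 by 1.47 and 0.62 (adjusted p 2.46e-06 and 0.000168). Of 11 uptake genes 2 were higher and 3 lower, with a median of -0.04, among them the lipoprotein receptors Vldlr (1.31, adjusted p 1.13e-06) and Scarb1 (-1.84, adjusted p 1.23e-05). Of 3 tested genes of sterol disposal 1 was higher, the sterol hydroxylase Cyp27a1 (1.54, adjusted p 0.000100). Of 7 genes of SREBP processing and degradation in the endoplasmic reticulum 1 was higher, Erlin2 (0.51, adjusted p 0.00188), and 1 lower, Erlin1 (-0.74, adjusted p 0.000700). Of 7 genes of intracellular sterol transport Gramd1b was higher (0.70, adjusted p 0.00224), and Gramd1a (-0.56, adjusted p 0.000389) and Stard3 (-0.55, adjusted p 0.000789) were lower. The median of synthesis was thus below 0 and that of the carriers above 0, and the difference between the lists was not tested.

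KO mice gave the same contrast in separate animals. In them 17 of the 31 genes were called between cerebella and cortices, 5 higher and 12 lower, where 17.0% and 19.8% of all 19593 genes tested were called higher and lower. Of the 20 enzymes 2 were higher and 10 lower, and their median was -0.49, against 0.00982 for all genes. Hmgcs1 was at 99.6 and 136 CPM in KO cerebella and 248 and 308 CPM in KO cortices (log2 fold change -1.28, adjusted p 0.000469), and Cyp46a1 at 28.2 and 29.6 against 197 and 175 CPM (-2.72, adjusted p 7.91e-07). The enzymes called lower in KO mice and not in controls were Cyp51 (-0.86, adjusted p 0.000497), Dhcr7 (-0.59, adjusted p 0.00546) and Idi1 (-0.52, adjusted p 0.0367). Ggps1 was called in controls and in KO mice was higher by 0.35 (adjusted p 0.00734). Neither of these contrasts shows a change of the tissue difference with genotype, which takes the interaction test. In controls the same 14 genes were called in all 8 alternatives that refitted the data, including the fit without control 2 in both tissues, where the enzyme median was again -0.39. In KO mice 16 of the 17 were called in all 5.

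The second comparison asked whether loss of Snx14 changed the pathway in cerebella. None of the 31 genes was called. In cerebella 0.514% of the 19447 genes tested were called higher in KO mice and 1.04% were called lower, and DESeq2 also called 0 of the 31. At an unadjusted p under 0.05 5 of the 31 were higher and 0 lower, beside 6.90% and 6.53% of all genes. The 2 KO libraries lay above all controls for 6 genes and below all controls for 2 (Ggps1 and Insig2), beside 15.5% and 14.6% of all genes. Of the 20 synthesis enzymes 10 had positive and 10 negative values, with a median of 0.0150 against 0.000899 for all genes. This split moved with single mice: the median was 0.10 without control 2 (15 positive), 0.13 without KO 1 (16 positive), -0.0536 without control 3 (9 positive) and -0.0543 without KO 2 (8 positive), with 0 enzymes called each time. Their CPM summed to 672, 777 and 667 in controls and 672 and 759 in KO mice. The 95% intervals over the 31 genes ran from -0.60 (Idi1) to 0.64 (Fdps), so changes past these bounds would lie outside the interval of every gene.

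**Figure D3:**
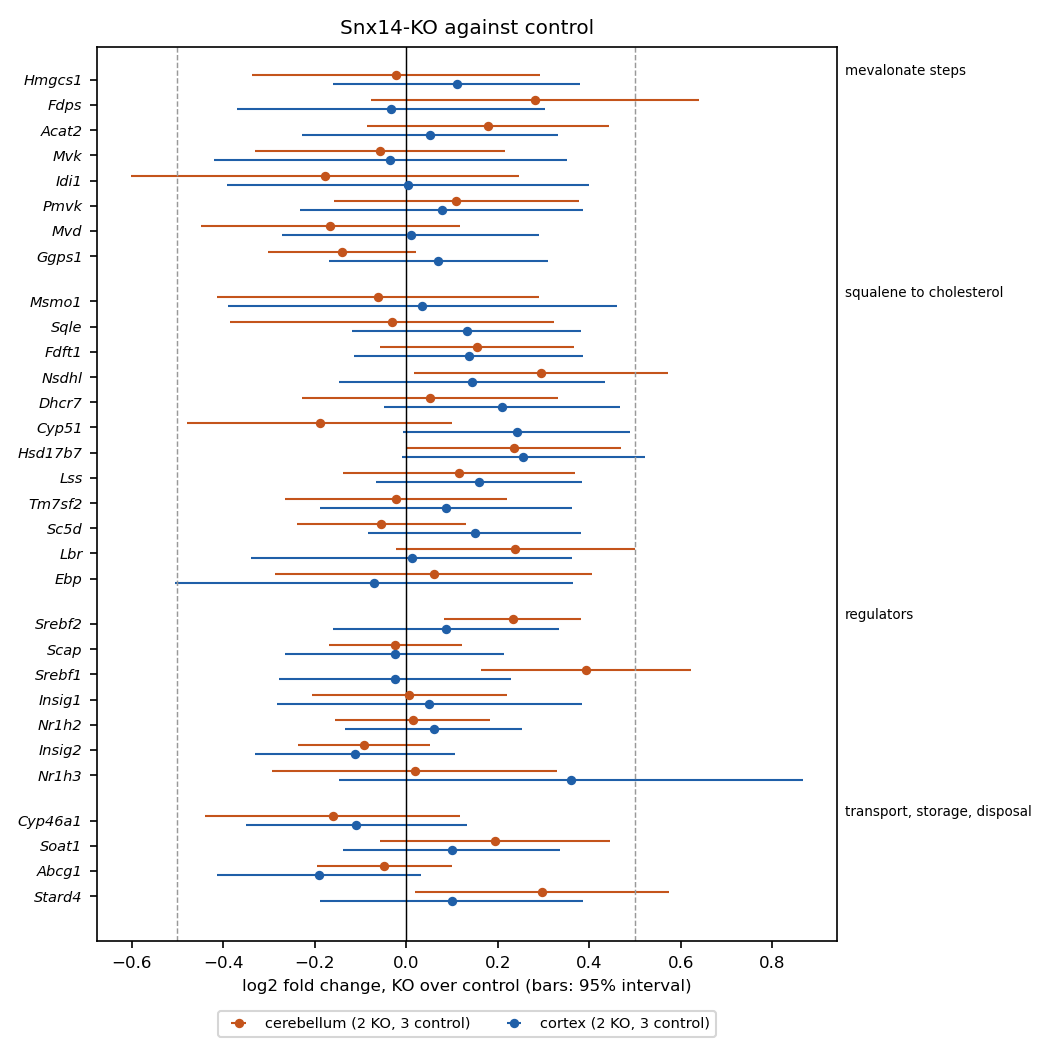
Log2 fold change of each gene in Snx14-KO over control mice, in cerebellum (orange) and cortex (blue), 2 KO and 3 control libraries each, with 95% intervals as bars and dashed lines at the fold threshold of 0.5. All 62 point values lie between -0.19 and 0.39, inside the dashed lines, and Srebf1 in cerebellum is the highest.

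The 5 genes with an unadjusted p under 0.05 were Srebf1, Srebf2, Stard4, Nsdhl and Hsd17b7. Srebf1 was at 56.2, 51.8 and 62.0 CPM in controls and 68.2 and 81.1 CPM in KO cerebella. The groups did not overlap, and the log2 fold change was 0.39 (SE 0.10, 95% interval 0.16 to 0.62, edgeR adjusted p 0.107, and 0.0272 by DESeq2, below the fold threshold). Without KO 2 its value was 0.26 (edgeR adjusted p 0.498), and over all 11 alternatives its adjusted p ran from 0.000299, with no filter on low counts, to 0.498. Srebf2 was at 104, 111 and 99.7 CPM in controls and 122 and 125 CPM in KO mice, again without overlap (0.23, SE 0.07, 95% interval 0.08 to 0.38, edgeR adjusted p 0.148). Without control 2 its adjusted p was 0.0441 and its value 0.28, and over the 11 alternatives the adjusted p ran up to 0.495. The activator genes were therefore 1.31-fold and 1.18-fold higher on average in KO cerebella, without a call.

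Stard4 was at 61.4, 68.1 and 51.0 CPM in controls and 80.7 and 68.2 CPM in KO cerebella, so that its lower KO value all but met its highest control (0.30, SE 0.12, adjusted p 0.336). Its value was 0.18 without KO 1 and 0.19 without control 3, and its adjusted p over the 11 alternatives ran from 0.0199 to 0.743. Nsdhl was at 10.7, 11.3 and 10.8 CPM in controls and 13.0 and 13.9 CPM in KO mice (0.29, SE 0.12, adjusted p 0.339), and Hsd17b7, a ketosteroid reductase of the same demethylation step, at 17.8, 16.8 and 18.1 and 20.2 and 21.4 CPM (0.24, SE 0.10, adjusted p 0.368). In all 3 of these genes both KO libraries were above the controls. The enzymes that differed most between the tissues had values near 0, with Hmgcs1 at -0.02 (95% interval -0.34 to 0.29), Sqle at -0.03 (-0.39 to 0.32) and Msmo1 at -0.06 (-0.41 to 0.29). Of the other regulators, Insig1, Nr1h2 and Nr1h3 had values of 0.01, 0.01 and 0.02. Cyp46a1 was at 28.2 and 29.6 CPM in KO cerebella, within the control range of 27.1 to 35.0 CPM (-0.16, 95% interval -0.44 to 0.12).

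**Figure D4:**
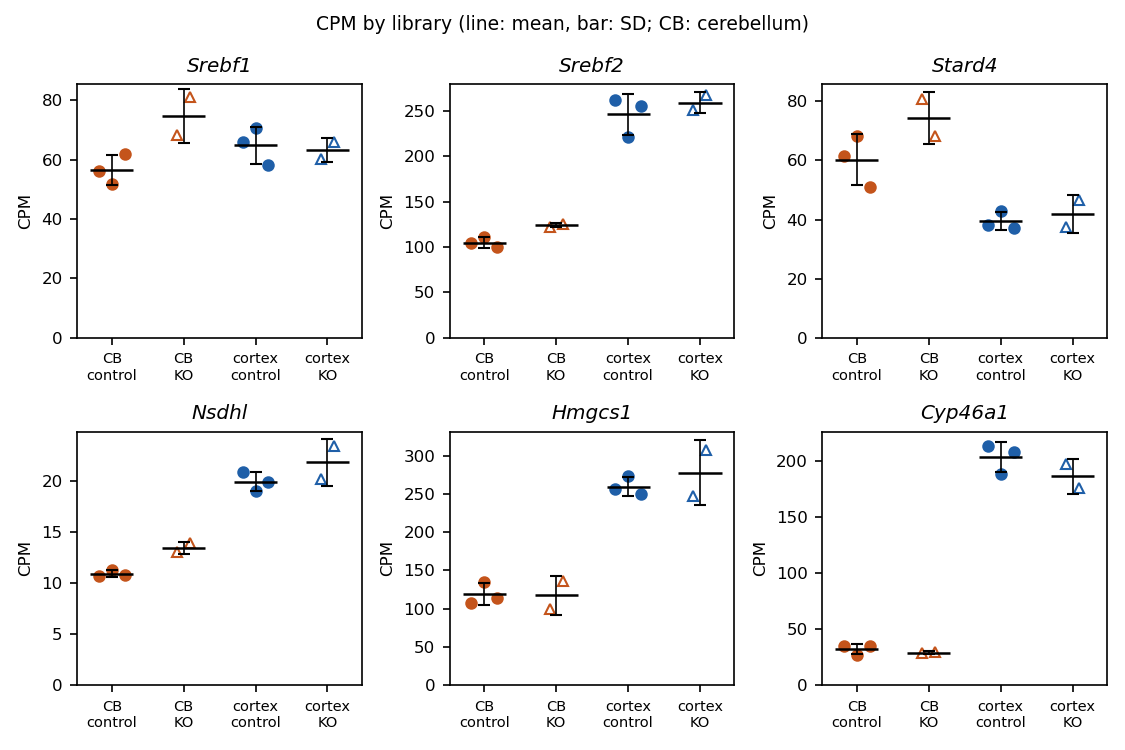
CPM in each library of Srebf1, Srebf2, Stard4, Nsdhl, Hmgcs1 and Cyp46a1 in control (circles) and Snx14-KO (triangles) cerebella and cortices, with the mean (line) and SD (bar); axes start at 0. Srebf1 and Srebf2 lie above all controls in KO cerebella, at 68.2 and 81.1 and at 122 and 125 CPM, and the groups overlap in cortices.

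Some lipid carriers outside the 31 genes were called in KO cerebella. Of the 8 carriers and efflux pumps 3 were called higher, the apolipoproteins Apoe, Apod and Clu, beside 0.514% of all genes tested. No other of the 39 pathway genes tested was called. The CPM of the 8 summed to 2844 to 3014 in control and 4104 to 4374 in KO cerebella. Apoe, the main lipoprotein protein of the brain, was 1.57-fold higher (log2 fold change 0.65, SE 0.10, adjusted p 0.0124), Apod was higher by 0.57 (adjusted p 0.0129) and Clu by 0.52 (adjusted p 0.0176). These calls depended on which libraries were kept. Without control 1, control 3 or KO 2 the adjusted p was 0.0606 to 0.0778 for Apoe, 0.0775 to 0.0817 for Apod and 0.0765 to 0.108 for Clu, and without control 2 Clu was at 0.48, below the fold threshold. With the replicate number as block the adjusted p was 0.0626 for Apoe and 0.0783 for Clu, and in 1 fit of all 10 libraries it was 0.223 for Apod, so that Apoe and Apod were called in 7 and Clu in 6 of 11 alternatives. Astrocyte markers (8 genes) summed to 3247 to 3465 CPM in control and 3931 to 4085 CPM in KO cerebella. Of these markers 7 had positive values, up to 1.30 for Gfap, and 1 a negative value, Slc1a3 at -0.43. Microglia markers (8 genes) summed to 184 to 207 and 265 to 275 CPM, and Purkinje cell markers (10 genes) to 9139 to 10872 and 4679 to 4804 CPM. In these lists 0 markers were at 0 in any library. Choroid plexus markers (5 genes) were at 1195 to 3381 CPM in control cerebella and at 60.1 and 2899 CPM in KO 1 and KO 2. Their part in the values of the carriers and of Srebf1, Srebf2 and Stard4 was not tested.

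The third comparison put the same question in cortices. None of the 31 genes was called, where 0% of the 19202 genes tested were called in either direction, and DESeq2 called 0 of the 31. Snx14 itself was not called in this fit, although its log2 fold change lay between -1.46 and -1.16 in all 11 alternatives. The 0 calls in cortices therefore cannot tell an unchanged gene from a change that this test misses. At an unadjusted p under 0.05 there were 0 of the 31, beside 2.64% of all genes higher and 3.29% lower. Of the 20 enzymes 17 had positive values, with a median of 0.08 against 0.00122 for all genes. Without control 2 all 20 were positive with a median of 0.15, without KO 1 17 were with a median of 0.16, without control 3 13 were with a median of 0.05, and without KO 2 11 were with a median of 0.02, with 0 enzymes called each time. KO and control cortices did not overlap for 6 of the 31 genes that were higher and 1 that was lower, beside 10.5% and 14.2% of all genes. Hsd17b7 (0.26, 95% interval -0.01 to 0.52) and Cyp51 (0.24, 95% interval -0.01 to 0.49) had the highest values among the enzymes. Dhcr7, the reductase of the last step, was at 20.8, 22.3 and 21.7 CPM in controls and 25.0 and 24.5 CPM in KO cortices (0.21, adjusted p 0.883), both KO values above all controls. Abcg1 was the gene below all controls, at 69.9 and 68.7 CPM against 74.9, 86.7 and 78.2 CPM (-0.19, adjusted p 0.877). Srebf1 and Srebf2 had values of -0.02 and 0.09 with overlapping groups. Astrocyte markers summed to 4113, 2900 and 3945 CPM in control cortices 1, 2 and 3 and to 4305 and 4615 CPM in KO cortices. The low control value was that of control 2 alone. The part of these markers in the values above was not tested.

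An interaction term in a fit of all 10 libraries compared the KO effect in cerebella with that in cortices. Of the 31 genes 0 passed an adjusted p under 0.05, beside 0.0243% of the 20614 genes tested with a higher and 0.0776% with a lower effect in cerebella, and DESeq2 passed 0 of the 31. At an unadjusted p under 0.05 1 gene had a higher effect in cerebella, Srebf1 (difference 0.44, 95% interval 0.09 to 0.79, adjusted p 0.434, and 0.28 without control 2, adjusted p 0.484), and 1 a lower effect, Cyp51 (-0.41, 95% interval -0.80 to -0.02, adjusted p 0.576), beside 4.97% and 3.31% of all genes. Cyp51, the lanosterol demethylase, was at 45.5, 56.6 and 44.4 CPM in controls and 39.2 and 46.8 CPM in KO cerebella, and at 61.0, 71.5 and 62.3 and 71.3 and 80.9 CPM in cortices.

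Most enzymes were highest in the same 1 of the 3 control mice. Control 2 had the highest level of the 3 controls for 17 of the 20 enzymes in cerebella and for 16 in cortices, and for the same 16 in both tissues. Over all genes tested this mouse was highest for 36.6% in cerebella, 40.7% in cortices and 22.9% in both. Its enzymes summed to 777 CPM in cerebellum, against 673 and 667 CPM in controls 1 and 3, and to 1133 CPM in cortex, against 1013 and 983 CPM. KO 2, the male of the KO mice, summed to 759 CPM in cerebellum and 1183 CPM in cortex, against 672 and 1040 CPM in KO 1. Oligodendrocyte markers were highest in the same control, at 3839 CPM in cerebellum against 2638 and 3156 CPM, and in KO cerebella they were at 3424 and 4177 CPM, whereas in KO cortices they were at 3034 and 3020 CPM. The part of sex and of oligodendrocyte RNA in these levels was not tested.

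**Figure D5:**
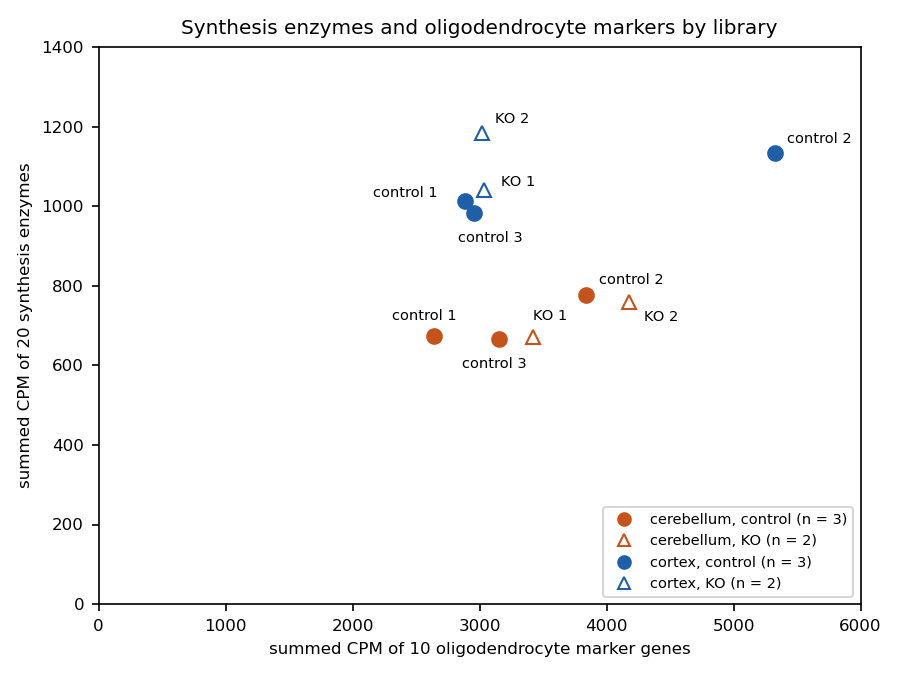
Summed CPM of the 20 synthesis enzymes (vertical) against summed CPM of 10 oligodendrocyte marker genes (horizontal) in each library; circles are controls, triangles are Snx14-KO mice, and labels give the mouse. The cerebella lie between 667 and 777 CPM and the cortices between 983 and 1183 CPM on the vertical axis, at overlapping marker levels of 2638 to 4177 and 2883 to 5325 CPM.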

How the data were processed

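The authors trimmed reads, used STAR to align them to the mouse genome GRCm38, and ran featureCounts over exons (Subread 2.0.1, per the file headers and the submitters' processing notes). The deposited values are raw counts per gene, with no normalization, 1 table per library. Libraries were made strand-specific but counted without strand, and a fragment over several genes counted for each, so a gene can hold a neighbour's reads. The exon overlap was 26.7% for Fdps, 18.3% for Fdft1, 13.2% for Scap, 12.1% for Hmgcs1 and Tm7sf2 and 10.7% for Lbr, and under 10% for the other 25 genes. Of 81881 entries the 55536 with a gene identifier were used, named from GENCODE M21. The other 26345, with 0.160% to 0.926% of a library's counts, were left out.

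The 31 genes and all lists were chosen with earlier results of these data known. Genes named are the members called in a comparison and the leading members of each role, with the others by range, and at most 3 called genes of each other pathway list with the smallest adjusted p. Singled out after their values were seen were the genes with the highest or lowest values in cortex, Fdps in KO cerebella and Cyp51 in the interaction.

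Groups came from the labels. Comparisons used edgeR 4.0.16 under R 4.3.3 with its quasi-likelihood test (filterByExpr with a count minimum of 10, TMM) and Benjamini-Hochberg adjustment over all genes. A call needs an adjusted p under 0.05 and a log2 fold change past 0.5 in size, and in the interaction the adjusted p alone. Alternatives were DESeq2 1.42.0, RLE size factors, no filter, 1 fit of 10 libraries, a sex term, replicate blocks and leaving out each mouse. The scripts were tested on simulated data. The tissues of a mouse are paired by its animal number: the deviations of a mouse's 2 tissues from their group means correlated at 0.215 to 0.445. Of the 31 genes 30 had at least 100 counts in every library, with Ebp the lowest of these at 174. The share of counting error in the spread was not measured. SEs and intervals are those of the fitted log2 fold changes.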

Additional observations from a re-analysis of the deposited data

How the results depend on the processing

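No alternative reversed a call. With an adjusted p under 0.05 alone 23 of the 31 genes passed between the tissues in controls, 7 higher and 16 lower in cerebella. At that threshold 26.5% of all genes tested were higher and 26.8% lower. The median of the enzymes in KO cerebella ranged from -0.0543 (without KO replicate 2) to 0.13 (without KO replicate 1) when 1 mouse was left out. It was -0.41 between the tissues in controls with RLE size factors and -0.45 in KO mice in 1 fit of 10 libraries. Idi1 was not called between the tissues of KO mice with DESeq2 (-0.52, adjusted p 0.0604) or in 1 fit (-0.48, adjusted p 0.0839). The cause was not tested in any of these. Leaving out a KO mouse in that comparison left no residual degrees of freedom and was not run.

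With the animal as replicate block, 14 genes were called between the tissues in controls, 17 in KO mice, and 0 in the interaction, so pairing changed no call among the 31. Control and KO mice share only a number (correlations -0.0527 to 0.136). With that number as block 0 of the 31 were called in either tissue, and over all genes in cerebellum the count went from 302 to 181. Over all genes, cerebellum also gave 842 with no filter, 133 without control 1, 179 without control 3 and 180 without KO 1. Cortex gave 0, and 50 with DESeq2, 380 with no filter, 98 without control 2, 7 without KO 2, and 3 with the sex term or the block. The interaction gave 21, and 218 with DESeq2, 599 with no filter, 128 with the block, 198 without control 2, 0 without control 1, control 3 or KO 1, and 1 without KO 2. With 2 KO mice, changes in the 31 genes smaller than their intervals could be missed, and so could some whose interval left out 0. Srebf1 in cerebellum was such a gene (0.39, edgeR adjusted p 0.107).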
